A study of Mus musculus with 6 samples.

Results

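The 10 fibrillar collagen genes examined here were Col1a1, Col1a2, Col3a1, Col5a1, Col5a2, Col5a3, Col11a1, Col11a2, Col24a1 and Col27a1, taken by name from the 32285 genes counted in 6 single-nucleus RNA-seq libraries of mouse photothrombotic (PT) brain lesions. All 10 had UMIs (unique molecular identifiers, each standing for 1 captured transcript) in each of the 6 libraries. A PT lesion is a cortical infarct made by illuminating a light-activated dye in the vessels through the skull. Tissue was collected on day 7 or day 21 after the injury (written as dpi). Ctrl mice were wild-type, with no treatment given in the labels. ADWA11 mice were wild-type and received ADWA11, an antibody that blocks integrin αvβ8, a receptor that releases TGFβ from its latent form. Tgfbr2-cKO mice carried Col1a2(creER) with Tgfbr2(flox), in which Cre expressed from Col1a2 sequences removes the type 2 TGFβ receptor from fibroblasts after tamoxifen, so Cre is driven through the regulatory sequence of a gene that is itself measured here. The labels give these mice no treatment, and how many fibroblasts had lost the receptor was not measured here. Strain and age are not given per library; the study used adult mice, mostly on C57BL/6. Each of the 6 groups was 1 library that pooled nuclei of 1 male and 1 female mouse, so group and library cannot be told apart. The mice of a group shared 1 library, and no test between groups was run. All intervals given below cover counting error only. Where 3 values are given for a day, they are in the order Ctrl, ADWA11, Tgfbr2-cKO.

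Fibrillar collagens are the collagens that assemble into the striated fibrils of scar, dura, skin, tendon and bone. Each chain is a long run of Gly-X-Y triplets that winds with others into a triple helix, is secreted as a procollagen, trimmed at its ends and stacked into fibrils. Types I and III form the bulk of fibrils in soft tissue, types V and XI sit inside fibrils and set when they start and how thick they grow, and types XXIV and XXVII are later-described, divergent members known from bone and cartilage, with a slightly shorter, interrupted helix. In the brain these genes are mostly used by fibroblasts of the meninges and vessel walls, which expand in lesions, and TGFβ is a classical inducer of the major chains.

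The 10 genes lie on 8 chromosomes and range from 16.8 kb (Col1a1, chr11:94936224-94953042, GRCm38) to 259.5 kb (Col24a1, chr3:145292472-145552011). Col3a1 (chr1:45311538-45349706) and Col5a2 (chr1:45374321-45503282) are neighbours on opposite strands of chromosome 1. Col5a1 (chr2:27886425-28039514) shares its span with 2 other counted genes, 2810430I11Rik and Gm13372, both on the opposite strand. Col24a1 shares its span with the antisense 9530034A14Rik and with D530037P16Rik on its own strand. Some UMIs of Col24a1 and D530037P16Rik may thus have been assigned to one or the other. Whether the antisense genes affected the counts was not tested. The RefSeq promoter table (GRCm38.p6) held 8 of the 10 members. The 250 bases before the start site are printed for the members whose fibroblast levels set the pattern described below: Col1a2, Col3a1 and Col11a1, which were lower in Tgfbr2-cKO fibroblasts, and Col24a1, which was higher. Capitals mark CCAAT (a letter string bound by NF-Y), GGGCGG (a GC box, bound by Sp1), TATAAA (a core promoter string) and CAGAC (a string bound by Smad proteins). All were searched on both strands, and no matches overlapped in these sequences.
Col1a2, chr6:4505368-4505617, + strand: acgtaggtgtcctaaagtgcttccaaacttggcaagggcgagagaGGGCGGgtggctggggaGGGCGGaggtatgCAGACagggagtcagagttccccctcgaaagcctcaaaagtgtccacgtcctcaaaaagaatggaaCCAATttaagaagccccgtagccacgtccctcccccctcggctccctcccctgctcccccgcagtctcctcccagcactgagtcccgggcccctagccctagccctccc
Col3a1, chr1:45311288-45311537, + strand: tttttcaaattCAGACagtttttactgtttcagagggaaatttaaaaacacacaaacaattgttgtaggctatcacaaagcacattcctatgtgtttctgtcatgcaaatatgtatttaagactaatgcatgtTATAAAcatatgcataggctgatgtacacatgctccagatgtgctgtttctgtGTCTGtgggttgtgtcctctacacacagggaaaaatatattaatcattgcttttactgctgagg
Col11a1, chr3:114030290-114030539, + strand: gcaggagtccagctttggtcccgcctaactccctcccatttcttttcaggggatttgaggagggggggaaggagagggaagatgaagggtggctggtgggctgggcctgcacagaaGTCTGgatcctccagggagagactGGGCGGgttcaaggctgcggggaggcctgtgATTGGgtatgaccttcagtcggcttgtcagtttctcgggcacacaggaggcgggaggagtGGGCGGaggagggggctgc
Col24a1, chr3:145292222-145292471, + strand: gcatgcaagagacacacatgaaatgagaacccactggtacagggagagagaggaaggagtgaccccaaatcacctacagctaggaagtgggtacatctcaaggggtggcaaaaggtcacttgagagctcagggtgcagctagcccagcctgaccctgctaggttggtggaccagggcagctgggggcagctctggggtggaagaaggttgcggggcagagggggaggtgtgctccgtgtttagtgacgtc
The Col1a2 window held 1 CCAAT, 2 GGGCGG and 1 CAGAC, and that of Col11a1 held the same 3 kinds in the same numbers. Col3a1 held 1 TATAAA and 2 CAGAC in a window of 35.2% G and C, against 62.0% for Col1a2. None of the 4 strings was found in the window of Col24a1. Over 32851 RefSeq promoters of the same length, 33.8% held CCAAT, 32.7% GGGCGG, 12.4% TATAAA and 42.2% CAGAC, so each match is a common one and describes letters only.

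The libraries held 64798965 to 140310354 UMIs, and 61917 nuclei passed the filters. Nuclei were clustered and classes named from marker genes, so each name below means nuclei like that type. Fibroblast-like nuclei (hereafter fibroblasts) numbered 2307 (Ctrl), 2865 (ADWA11) and 383 (Tgfbr2-cKO) on day 7, with 6015, 3274 and 999 on day 21, 15843 in all. Levels are given in CPM (UMIs of a gene per 1000000 UMIs of the class, mitochondrial UMIs left out). The summed level of 10 fibroblast markers in this class was 5606, 6357 and 4947 CPM on day 7. On day 21 it was 6005, 5655 and 4363 CPM, so Tgfbr2-cKO was lowest at both times. That of 10 myeloid markers was between 208 and 287 CPM. The 2 Tgfbr2-cKO libraries stood apart in makeup: neurons were 56.9% of nuclei at 7 dpi and 13.9% at 21 dpi, against 0.256% to 1.94% in the other 4, and fibroblasts were 3.62% and 15.2%, against 26.2% to 46.0%. Neuron markers summed to 1538, 994 and 1384 CPM in these fibroblasts on day 7, groups in the same order, and to 508, 289 and 728 on day 21. Tgfbr2 itself stood at 328, 253 and 246 CPM on day 7 and at 234, 201 and 191 on day 21. Its UMIs come from all of the gene and not from the floxed part, so these levels do not check the deletion. Pairs of libraries shared 21 to 61 cell barcodes. One of the 10 fibroblast sub-clusters, number 1 with 3035 nuclei, was led by myeloid genes, and 44.0% of its nuclei were called doublets. It was kept, and all 20 member calls given below were also made without it.

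Fibroblasts held most of the UMIs of every member in the control lesion at 7 dpi, from 54.5% for Col11a2 to 87.5% for Col5a2. Pooled over the 6 libraries, however, the highest levels of 9 of the 10 were those of the small osteoblast-like class, nuclei with bone-forming markers such as Sp7 and Bglap. Single libraries departed from this order: in Ctrl at 7 dpi Col11a2 was higher in oligodendrocyte precursors (114 CPM) than in osteoblast-like nuclei (57.6 CPM), and in ADWA11 at 7 dpi Col3a1 was higher in fibroblasts (1796 CPM) than in osteoblast-like nuclei (1584 CPM), as was Col27a1. Pooled, osteoblast-like nuclei had 6506 CPM of Col1a1, 10340.3 of Col1a2, 541 of Col11a2 and 776 of Col24a1, the chain known from bone. Fibroblasts pooled in the same way had 922, 2329, 32.98 and 39.8 CPM of the same genes. For Col3a1, the partner of type I in soft tissue, the 2 classes were close, with 1578 CPM in osteoblast-like nuclei and 1504 in fibroblasts. Other classes stood out for single members. Mural cells, the pericytes and smooth muscle of vessels, had the highest level of Col5a3, 177, 224, 119, 147 and 166 CPM in the 5 libraries with at least 50 of them, all but Tgfbr2-cKO at 7 dpi. Oligodendrocyte precursors, the glia that renew myelinating cells, had 788, 402 and 472 CPM of Col11a1 on day 7, then 1038 in Ctrl and 289 in Tgfbr2-cKO, with under 50 of these nuclei in the sixth library. That was below the fibroblast level in the first 2 of these libraries (Ctrl and ADWA11, 7 dpi) and above it in both Tgfbr2-cKO libraries. In Ctrl at 21 dpi the 2 classes were within counting error (987 to 1091 and 1064 to 1086 CPM). Astrocytes had between 41.98 and 76.4 CPM of Col11a2. Their Col5a3 was 17.4, 31.4 and 16.7 CPM at 7 dpi and 86.1, 73.6 and 83.2 at 21 dpi, so the later libraries were higher in all 3 groups.

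**Figure D1:**
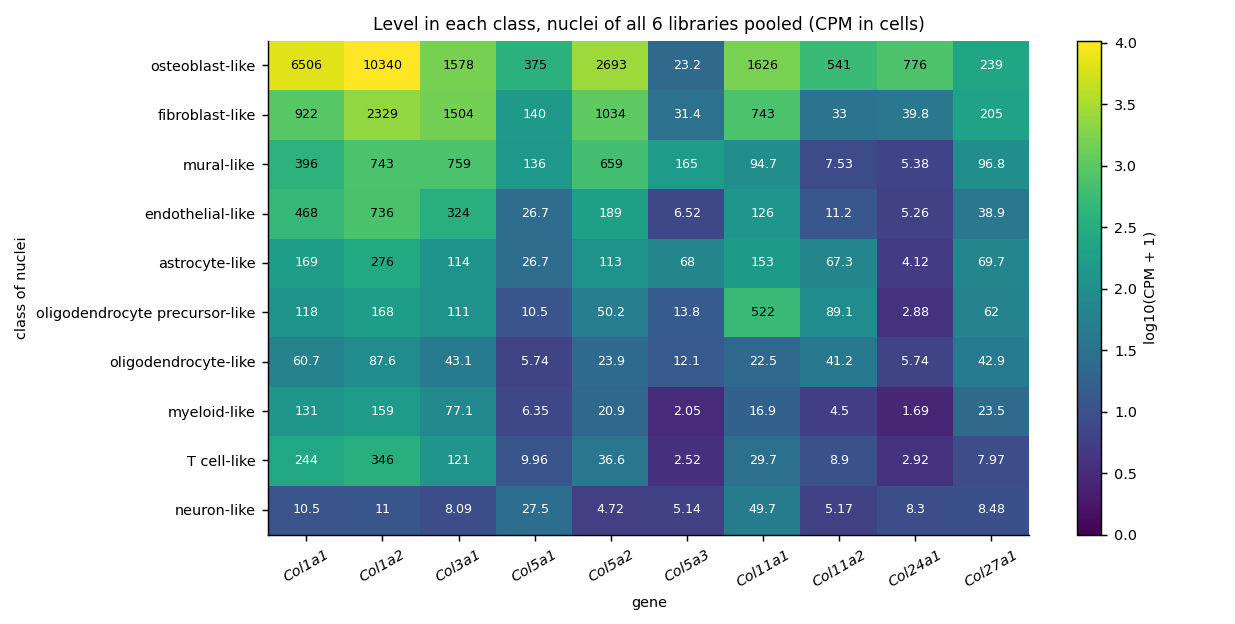
Level of each fibrillar collagen gene (columns) in each of 10 nucleus classes (rows), pooled over the 6 libraries. Cells print the CPM of the class and are coloured by log10(CPM + 1). Osteoblast-like nuclei have the highest Col1a1 (6506 CPM) and Col1a2 (10340.3 CPM), and mural-like nuclei the highest Col5a3 (165 CPM).

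Type I collagen is made of the products of Col1a1 and Col1a2. Col1a1 in fibroblasts was 1598 (Ctrl), 839 (ADWA11) and 619 CPM (Tgfbr2-cKO) at 7 dpi, followed by 998, 698 and 149.7 CPM at 21 dpi. The Tgfbr2-cKO value was the lowest at each time, and at 21 dpi it rested on 1304 UMIs (interval 142 to 158 CPM) against 36841 in Ctrl (988 to 1008 CPM). The Tgfbr2-cKO to Ctrl log2 ratio was -1.37 (-1.45 to -1.29) on day 7 and -2.74 (-2.82 to -2.66) on day 21, with 95% intervals in parentheses. For ADWA11 against Ctrl it was -0.93 (-0.95 to -0.91) early and -0.52 (-0.54 to -0.49) late. Col1a2, the second chain of the same trimer and the gene whose sequences drive the Cre, was 3005 (Ctrl), 1953 (ADWA11) and 1045 CPM (Tgfbr2-cKO) at 7 dpi, followed by 2953, 2110.2 and 460.1 CPM at 21 dpi. Its log2 ratio was -1.52 (-1.58 to -1.47) on day 7 and -2.68 (-2.73 to -2.64) on day 21 for Tgfbr2-cKO, and -0.62 (-0.64 to -0.60) early and -0.48 (-0.50 to -0.47) late for ADWA11, each against Ctrl. Whether the Cre allele alters Col1a2 UMIs was not tested. Nuclei could be assigned to the male or the female mouse of a library from sex-linked transcripts, and both chains kept this order in each sex. Col1a1 at 21 dpi was 922 in female and 1081 in male nuclei of Ctrl and 133 in female and 173 in male nuclei of Tgfbr2-cKO, in CPM.

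Col3a1 encodes the only chain of type III, which mixes with type I in distensible tissues and early scar. It was 2108 (Ctrl), 1796 (ADWA11) and 1425 CPM (Tgfbr2-cKO) at 7 dpi, followed by 1475, 1152 and 413 CPM at 21 dpi. The 3 groups were closer to each other at 7 dpi than for type I, and at 21 dpi Tgfbr2-cKO was well below both. The log2 ratio of Tgfbr2-cKO to Ctrl was -0.57 (-0.62 to -0.51) at 7 dpi, short of 2-fold, and -1.84 (-1.89 to -1.79) at 21 dpi. For ADWA11 it was -0.23 (-0.25 to -0.21) and -0.36 (-0.38 to -0.34). In Tgfbr2-cKO fibroblasts Col3a1 was lower at 21 than at 7 dpi by a log2 ratio of -1.79, against -0.52 in Ctrl and -0.64 in ADWA11.

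**Figure D2:**
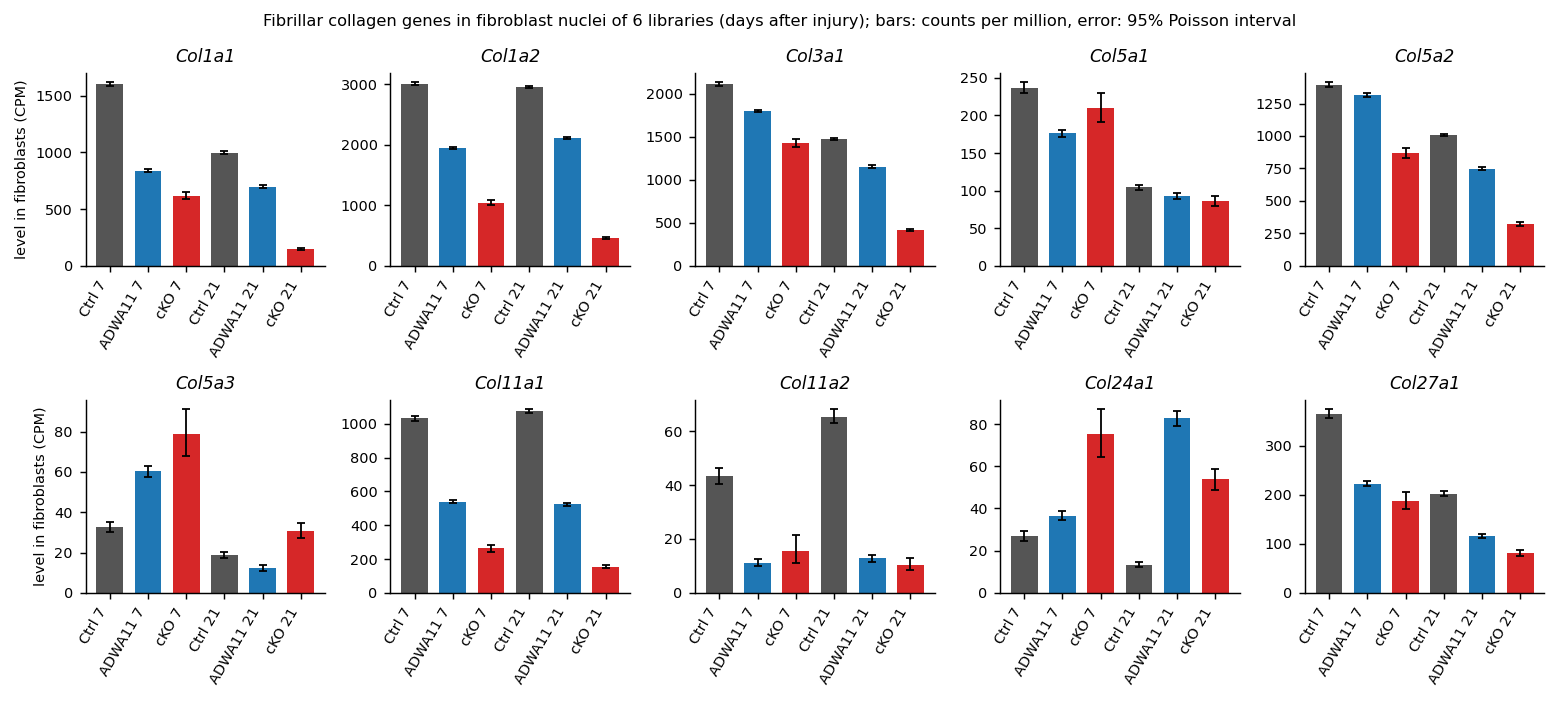
Level of each member in fibroblasts of the 6 libraries, in CPM on linear axes that start at 0, 1 panel per gene. Each bar is 1 library and error bars are exact 95% Poisson intervals, which cover counting error only. Col1a1 runs from 1598 CPM in Ctrl at 7 dpi to 149.7 CPM in Tgfbr2-cKO at 21 dpi, while Col24a1 is highest in ADWA11 at 21 dpi (82.7 CPM).

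Type V chains nucleate type I fibrils, and the 3 of them did not move together. Col5a2 was 1396 (Ctrl), 1315 (ADWA11) and 865 CPM (Tgfbr2-cKO) at 7 dpi, followed by 1007, 749.6 and 322 CPM at 21 dpi. Its Tgfbr2-cKO to Ctrl log2 ratio was -0.69 (-0.76 to -0.62) at 7 dpi and -1.64 (-1.70 to -1.59) at 21 dpi. Col5a1, the other chain of the common type V trimer, was 237 (Ctrl), 176 (ADWA11) and 209.9 CPM (Tgfbr2-cKO) at 7 dpi, followed by 105, 92.6 and 86.1 CPM at 21 dpi. It was lower at 21 than at 7 dpi in all 3 groups: the log2 ratio of 21 to 7 dpi was -1.18 in Ctrl, -0.93 in ADWA11 and -1.29 in Tgfbr2-cKO. Against Ctrl, the Tgfbr2-cKO ratio was -0.17 (-0.31 to -0.04) on day 7 and -0.28 (-0.39 to -0.17) on day 21. Col5a3, a minor type V chain, was 32.5 (Ctrl), 60.2 (ADWA11) and 78.9 CPM (Tgfbr2-cKO) at 7 dpi, followed by 18.8, 12.2 and 30.6 CPM at 21 dpi. It was one of the pair of members above Ctrl in Tgfbr2-cKO at both times, with log2 ratios of 1.28 (1.03 to 1.52) early and 0.70 (0.50 to 0.91) late. The late ratio was -0.50 without fibroblast sub-clusters 5 and 8, each drawn almost wholly from 1 library, and 0.18 as a mean over nuclei. In ADWA11 it was above Ctrl at 7 dpi (log2 ratio 0.89, 0.76 to 1.02) and below it at 21 dpi (-0.63, -0.82 to -0.43). Mural cells carried more Col5a3 than fibroblasts. Over 9 mural markers the summed level in fibroblasts was 314, 293 and 329.9 CPM at 7 dpi and 253, 236 and 371 at 21 dpi, highest in Tgfbr2-cKO at both times, with 2 markers at 0 in that group at 7 dpi and none at 0 elsewhere. Their part in the Col5a3 values was not tested. Within the myofibroblast-like sub-cluster alone the Tgfbr2-cKO to Ctrl log2 ratio at 7 dpi was 1.90 (1.59 to 2.20).

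Col11a1 and Col11a2 encode type XI chains, which share the inner-fibril role of type V and are best known from cartilage. Col11a1 was 1033 (Ctrl), 539 (ADWA11) and 262 CPM (Tgfbr2-cKO) at 7 dpi, followed by 1075, 525 and 155 CPM at 21 dpi. Its levels in control fibroblasts at 21 and 7 dpi were close, with a log2 ratio of 0.06 (0.03 to 0.08), and it had the largest negative Tgfbr2-cKO to Ctrl ratio of the 10 members at both times, -1.98 (-2.09 to -1.86) and -2.79 (-2.87 to -2.71). Its interval overlapped that of Col11a2 at 7 dpi and those of Col1a1, Col1a2 and Col11a2 at 21 dpi. The ADWA11 to Ctrl ratio was -0.94 (-0.97 to -0.91) early and -1.04 (-1.06 to -1.01) late. Fibroblasts were split into 10 sub-clusters, described further on, and 93.9% of the 1056 nuclei in number 5 came from the control library at 21 dpi. Without it and number 8, the other one drawn almost wholly from 1 library, the ADWA11 ratio at 21 dpi was -0.57, below 2-fold. The Tgfbr2-cKO ratio of Col11a1 at 21 dpi was then -2.22. It was no longer the largest negative one, as that of Col1a1 was larger in size. Col11a2 was low, 43.2 (Ctrl), 11.2 (ADWA11) and 15.7 CPM (Tgfbr2-cKO) at 7 dpi, followed by 65.4, 12.8 and 10.4 CPM at 21 dpi. Both other groups were below Ctrl at both times, on 37 UMIs in Tgfbr2-cKO at 7 dpi and 91 at 21 dpi. Against Ctrl, the log2 ratios were -1.46 (-1.98 to -0.99) early and -2.65 (-2.97 to -2.34) late in Tgfbr2-cKO, and -1.95 (-2.14 to -1.77) early and -2.36 (-2.53 to -2.19) late in ADWA11. The early Tgfbr2-cKO ratio was -0.79 in female nuclei alone, short of 2-fold, and -2.10 in male nuclei. Over 14 alternative ways of processing, the late ratio ran from -3.04 to -1.66 in Tgfbr2-cKO and from -3.13 to -0.54 in ADWA11. Of all members Col11a2 was the 1 with the largest negative ADWA11 ratio at each time. Osteoblast-like nuclei had more Col11a2 than fibroblasts, and the Tgfbr2-cKO libraries held 2 and 3 of them. With that class counted as fibroblasts, the same ratios were -1.33 early and -2.88 late in Tgfbr2-cKO. With ADWA11 they were -0.64 early and -0.54 late, below 2-fold. Osteoblast markers summed to 744, 608 and 456 CPM in the fibroblasts themselves at 7 dpi and to 767, 695 and 373 at 21 dpi, with 1 to 3 of the 10 markers at 0. Their part in the ratios was not tested.

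Col24a1 and Col27a1 encode the divergent chains. Col24a1 was 26.96 (Ctrl), 36.6 (ADWA11) and 75.05 CPM (Tgfbr2-cKO) at 7 dpi, followed by 13.2, 82.7 and 53.7 CPM at 21 dpi, a scarce transcript that went the other way from the major chains. Tgfbr2-cKO was above Ctrl by a log2 ratio of 1.48 (1.22 to 1.73) on day 7 and 2.03 (1.84 to 2.21) on day 21. ADWA11 was above it by 0.44 (0.29 to 0.60) early, 2.65 (2.505 to 2.792) late. The ADWA11 value at 21 dpi was the highest of the 6 libraries, and it was above Ctrl in both sexes, with 53.4 in female and 102 in male nuclei against 9.95 in female and 15.9 in male nuclei, in CPM. The 2 high values at 21 dpi lay in different sub-clusters. In ADWA11 they were mainly those of sub-cluster 0, with 1902 of the 2151 fibroblast UMIs. It had 103 CPM in ADWA11 and 11.5 in Ctrl, a log2 ratio of 3.16 (2.93 to 3.40). In Tgfbr2-cKO 419 of 468 UMIs were in sub-cluster 8, which had 125 CPM, and 321 of its 339 nuclei came from that library. Sub-cluster 8 also had 4 neuron markers (Snap25, Syt1, Slc17a7 and Grin2b) and 3 mural markers (Rgs5, Abcc9 and Notch3) raised 2-fold over the other sub-clusters, with Gabrg3, Kcnip4 and Kcnc2 among its leading genes. The part of neuron and mural RNA in the Col24a1 value was not tested. Without sub-clusters 5 and 8, the Tgfbr2-cKO ratio at 21 dpi was -0.86, and with osteoblast-like nuclei counted as fibroblasts it was 0.85. At 7 dpi it was 1.05 without the 5 nuclei of most UMIs. Col27a1, also known from cartilage, was 365 (Ctrl), 223 (ADWA11) and 187 CPM (Tgfbr2-cKO) at 7 dpi, followed by 202, 115 and 81.7 CPM at 21 dpi, with Tgfbr2-cKO to Ctrl log2 ratios of -0.97 (-1.11 to -0.83) early, just short of 2-fold, and -1.31 (-1.42 to -1.19) late. The ADWA11 ratios were -0.71 (-0.76 to -0.67) early and -0.81 (-0.87 to -0.75) late. Over 14 alternative ways of processing, the late Tgfbr2-cKO ratio of Col27a1 ran from -1.99 to -1.15.

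Counted by a fixed size rule, a member was called lower or higher where the fibroblast levels differed by at least 2-fold and the 95% counting interval of the log2 ratio excluded 0. In Tgfbr2-cKO against Ctrl at 7 dpi, 4 members (Col1a1, Col1a2, Col11a1 and Col11a2) were called lower, beside 3.25% of the 13306 genes tested, and 2 (Col5a3 and Col24a1) were called higher, beside 5.98%. At 21 dpi 7 members were called lower, beside 6.31% of 15573 genes, with Col3a1, Col5a2 and Col27a1 added to the first 4. Only Col24a1 was called higher, beside 7.26%. Col5a1 was the member with the smallest difference at both times. The median log2 ratio of the 10 members was -0.83 at 7 dpi and -1.74 at 21 dpi, where that of all genes tested was 0.07 and -0.02. With ADWA11, Col11a2 alone was called lower at 7 dpi, beside 2.52% of 15226 genes, and none higher, beside 5.08%. At 21 dpi Col11a1 and Col11a2 were called lower, beside 3.22% of 16258 genes, and Col24a1 higher, beside 2.92%. The members' median was -0.52 and -0.50, and that of all genes 0.07 and 0.00. The comparisons of ADWA11 and of Tgfbr2-cKO share their control library, so their likeness is not independent.

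In Ctrl fibroblasts from 7 to 21 dpi, Col5a1 (log2 ratio -1.18, -1.24 to -1.12) and Col24a1 (-1.03, -1.21 to -0.85) were called lower, beside 5.12% of 15829 genes, and none was called higher, beside 11.5%. The Col24a1 ratio was short of 2-fold under 5 of 14 alternatives, and was -0.33 with osteoblast-like nuclei counted as fibroblasts and -0.65 in male nuclei. Col1a2 (-0.03) and Col11a1 (0.06) stood nearly where they were at 7 dpi, Col11a2 was higher by less than 2-fold (0.60, 0.48 to 0.71), and the median of the 10 was -0.60 against 0.07 for all genes. In Tgfbr2-cKO fibroblasts all 10 log2 ratios of 21 to 7 dpi were below 0, from -0.48 for Col24a1 to -2.05 for Col1a1, and the interval of Col11a2 reached 0. Their median was -1.24 against -0.04 for all genes. The makeup of these fibroblasts also differed. Myofibroblast-like nuclei were 139 of 383 at 7 dpi and 4 of 999 at 21 dpi, and sub-cluster 8 held 7 and 321. The part of makeup in these ratios was not tested. In ADWA11 the ratios of 21 to 7 dpi ran from -2.31 for Col5a3 to 1.18 for Col24a1, with a median of -0.45 against 0.03 for all genes. The processing alternatives were not run for 21 against 7 dpi in Tgfbr2-cKO or ADWA11. Set side by side at 21 dpi, ADWA11 fibroblasts had more Col1a1 than Tgfbr2-cKO fibroblasts by a log2 ratio of 2.22, more Col3a1 by 1.48 and more Col11a1 by 1.75, and less Col5a3 (-1.33).

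**Figure D3:**
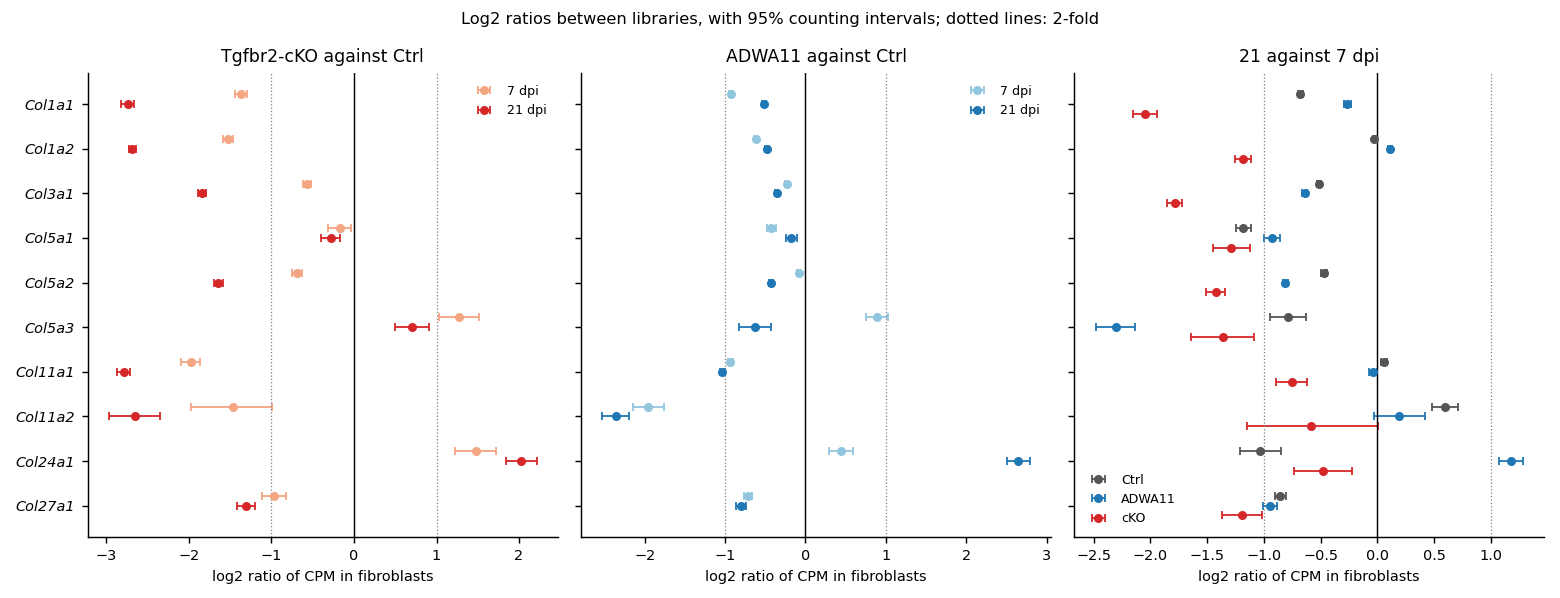
Log2 ratio of CPM in fibroblasts for the 10 members, in panels for Tgfbr2-cKO against Ctrl and ADWA11 against Ctrl (each at 7 and 21 dpi) and for 21 against 7 dpi (in each of the 3 groups). Points are ratios of 2 libraries, bars 95% counting intervals, and dotted lines mark 2-fold. Tgfbr2-cKO against Ctrl at 21 dpi reaches -2.79 for Col11a1, and Col24a1 lies at 2.03 in the same comparison.

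The fibroblast class was not uniform. Its nuclei were re-clustered with all collagen genes left out, so that the groups were not built from the genes described, and 10 sub-clusters resulted. By markers, number 2 was myofibroblast-like (Acta2, Postn, Cthrc1), 3 and 7 arachnoid-like, 4 leptomeningeal-like, 6 dural-like and 9 proliferating. Numbers 0 (led by Slc47a1 and Slc47a2), 1, 5 and 8 were not named. Number 5 had Cdh18 and Sema3c raised, markers of the paper's late inner state of the lesion core, short of the 3 needed. It had 2 dural markers raised as well. With collagens kept for clustering, a cluster of 1732 nuclei was named late inner. Of these, 1351 came from Ctrl and 112 from ADWA11 at 21 dpi. How far it overlaps number 5 was not tested. The paper describes fewer late inner fibroblasts with ADWA11. Sub-clusters drew unequally on the 2 times, so they are set side by side within libraries, over those with at least 50 nuclei. In Ctrl at 7 dpi Col1a1 was 2590.1 CPM in dural-like, 2264 in proliferating and 1696 in myofibroblast-like nuclei. In Ctrl at 21 dpi it was 1518 in sub-cluster 5, 1469 in dural-like and 359 in arachnoid-like nuclei of sub-cluster 3, barrier cells between dura and pia. Col11a1 followed a like order in Ctrl, 1868 CPM in dural-like nuclei at 7 dpi, and at 21 dpi 2199 in sub-cluster 5 and 1700.4 in dural-like nuclei. Sub-cluster 8 had 134 CPM in Tgfbr2-cKO at 21 dpi. It held 0 Ctrl nuclei at that time, so its type and its group cannot be told apart. Proliferating nuclei, 71 in Ctrl and 172 in ADWA11 at 7 dpi, had 83.3 and 122 CPM of Col5a3, the highest of the sub-clusters in both libraries. Their Col3a1, 3205 and 2366 CPM, was the highest in Ctrl, and in ADWA11 it stood beside 2516 in myofibroblast-like nuclei. Col11a2 in Ctrl at 21 dpi was 142 CPM in sub-cluster 5 and 58.4 in the next, sub-cluster 1.

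**Figure D4:**
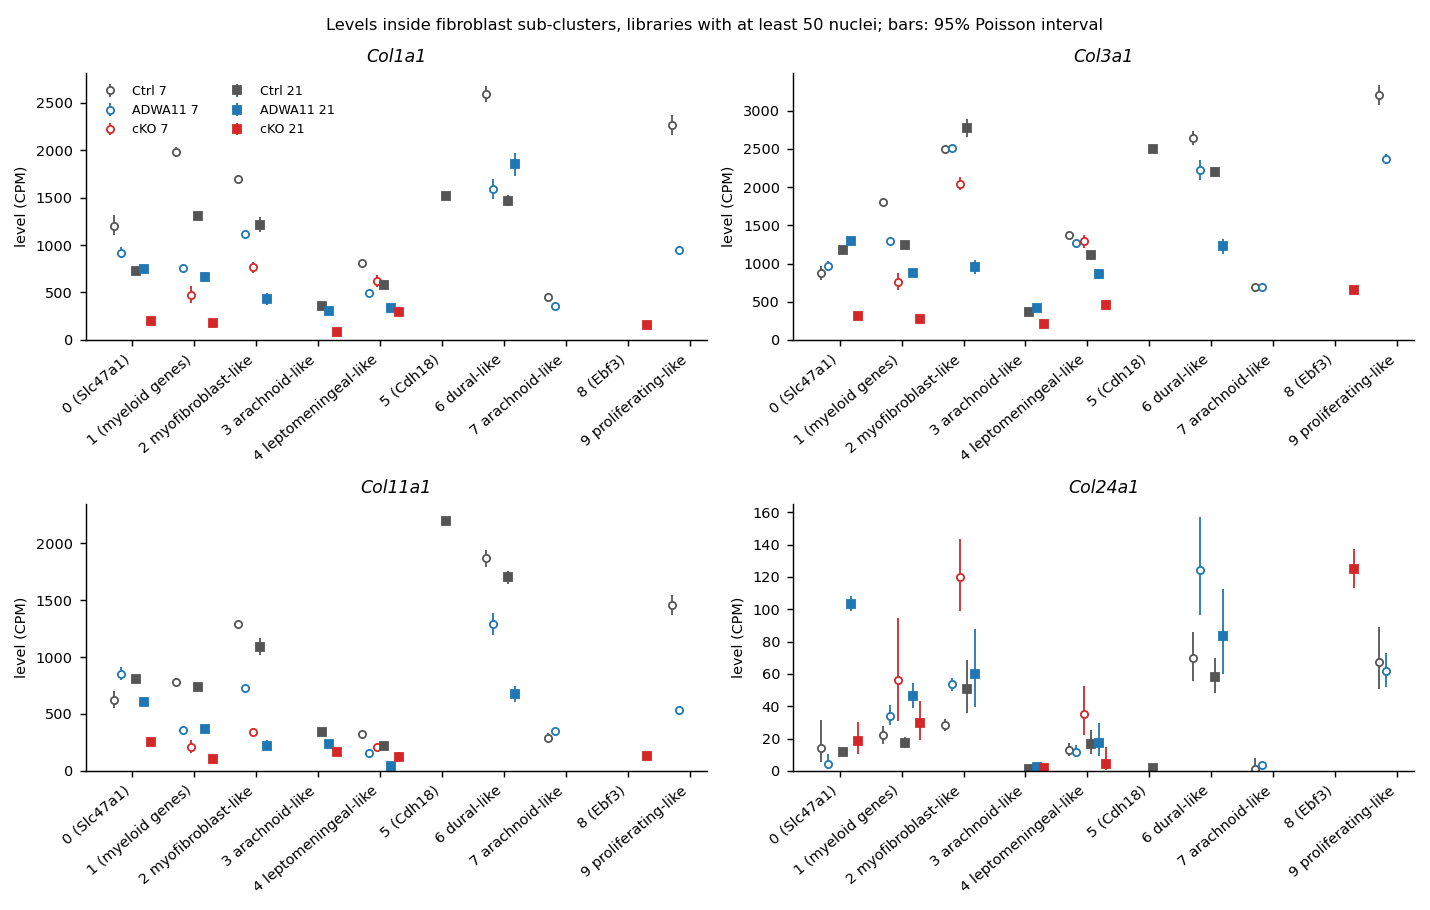
Levels of Col1a1, Col3a1, Col11a1 and Col24a1 in the 10 fibroblast sub-clusters, in CPM on linear axes from 0. Points are libraries with at least 50 nuclei of the sub-cluster (open circles 7 dpi, filled squares 21 dpi, colours groups) and bars exact 95% Poisson intervals. Col24a1 in sub-cluster 0 at 21 dpi is 103 CPM in ADWA11 and 11.5 in Ctrl, and sub-cluster 8 has a point for Tgfbr2-cKO at 21 dpi alone (125 CPM).

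The makeup of the class moved with the groups, so the ratios were also taken within sub-clusters. At 7 dpi arachnoid-like sub-cluster 7 held 91 Ctrl and 483 ADWA11 nuclei, and dural-like sub-cluster 6 held 156 and 64. The ADWA11 ratios at 7 dpi given above are for the whole class, without a split by sub-cluster. At the same time the myofibroblast-like sub-cluster held 1025 Ctrl, 1204 ADWA11 and 139 Tgfbr2-cKO nuclei. Within it the Tgfbr2-cKO to Ctrl log2 ratio was -1.15 (-1.26 to -1.04) for Col1a1, -1.47 (-1.55 to -1.38) for Col1a2 and -1.93 (-2.09 to -1.77) for Col11a1. Col24a1 was 2.09 (1.76 to 2.41), and the interval of Col5a1 held 0 (-0.06, -0.26 to 0.14). In the leptomeningeal-like sub-cluster, with 467 Ctrl and 115 Tgfbr2-cKO nuclei, the same comparison gave smaller values, -0.39 for Col1a1, -0.63 for Col11a1 and -0.09 (-0.20 to 0.01) for Col3a1. The difference between the 2 sub-clusters was not tested. At 21 dpi the myofibroblast-like sub-cluster held 81, 52 and 4 nuclei, too few in Tgfbr2-cKO to compare. In sub-cluster 0, with 2026 Ctrl and 88 Tgfbr2-cKO nuclei, the ratios were -1.86 for Col1a1, -1.96 for Col1a2, -1.92 for Col3a1 and -1.67 for Col11a1. Arachnoid-like sub-cluster 3 (607 and 388 nuclei) gave -2.11, -1.65, -0.80 and -1.02 for the same genes. All of these were smaller in size than the whole-class ratios of Col1a1, Col1a2 and Col11a1, and Col3a1 in sub-cluster 0 was slightly larger. In ADWA11 against Ctrl at 21 dpi, sub-cluster 0 gave 0.03 (-0.01 to 0.07) for Col1a1, -0.03 (-0.05 to -0.01) for Col1a2 and -0.41 (-0.45 to -0.37) for Col11a1, while the 52 ADWA11 and 81 Ctrl myofibroblast-like nuclei gave -1.51 (-1.74 to -1.28) and -2.30 (-2.62 to -1.99) for Col1a1 and Col11a1. Sub-clusters 5 and 8 were then left out of the whole class, a choice made after seeing the data. The ADWA11 ratio at 21 dpi became -0.31 for Col1a1, -0.22 for Col1a2 and -0.07 for Col3a1. The Tgfbr2-cKO ratio at 21 dpi became -2.59 for Col1a1 and -2.22 for Col11a1. From 7 to 21 dpi in Ctrl, Col24a1 became -0.74, short of 2-fold, Col27a1 -1.34, past it, and Col11a1 -0.39.

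The share of fibroblasts with at least 1 UMI was compared after thinning each nucleus to 2000 UMIs. Col1a1 was found in 84.2% (Ctrl), 68.9% (ADWA11) and 56.3% (Tgfbr2-cKO) of fibroblasts on day 7, and in 73.4%, 63.1% and 20.8% at 21 dpi. In myeloid nuclei, which do not make collagen fibrils, the shares were 27.6%, 16.96% and 2.71%, then 35.6%, 24.8% and 2.53%. Within each time point the myeloid share was in the same order as the fibroblast share, and the fibroblast share lay above it in all 6 libraries. Before thinning, the fibroblast shares were 96.7%, 93.3% and 74.7%, then 90.02%, 90.4% and 53.6%, and thinning left out 187, 111, 40, 1219, 118 and 61 shallower fibroblasts. Col11a1 was found in 63.96%, 47.4% and 34.4% of fibroblasts at 7 dpi and in 66.5%, 50.6% and 19.4% at 21 dpi, and Col24a1 in 4.06%, 5.37% and 9.62%, then 1.83%, 8.999% and 4.797%. All of Col1a1, Col1a2 and Col3a1 were found together in 72.6%, 53.7% and 36.4% of fibroblasts at 7 dpi and in 58.4%, 45.9% and 5.33% at 21 dpi. None of the 3 was found in 2.03%, 3.34% and 7.58%, and then in 2.398%, 3.74% and 27.1%.

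That level in immune nuclei can be set beside the fibroblast ratios. Myeloid nuclei had 204, 93.9 and 13.4 CPM of Col1a1 at 7 dpi and 247, 155 and 11.5 at 21 dpi. Subtracting from the fibroblasts the mean UMIs per myeloid or T cell nucleus took off at most 25.9% of Col11a2, 20.7% of Col1a1, 19.9% of Col27a1 and 2.90% of Col11a1 UMIs in any library. Afterwards the Tgfbr2-cKO to Ctrl log2 ratio of Col1a1 was -1.24 at 7 dpi and -2.48 at 21 dpi, and all 20 calls were still made. Col27a1 had its own pattern in myeloid nuclei, 48.7, 18.2 and 58.8 CPM at 7 dpi and 19.6, 3.19 and 23.96 at 21 dpi, with Tgfbr2-cKO highest at each time, unlike its order in fibroblasts. In oligodendrocyte precursors of the Tgfbr2-cKO libraries Col1a1 was at 12.6 and 4.78 CPM, where their Col11a1 was at 472 and 289.

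**Figure D5:**
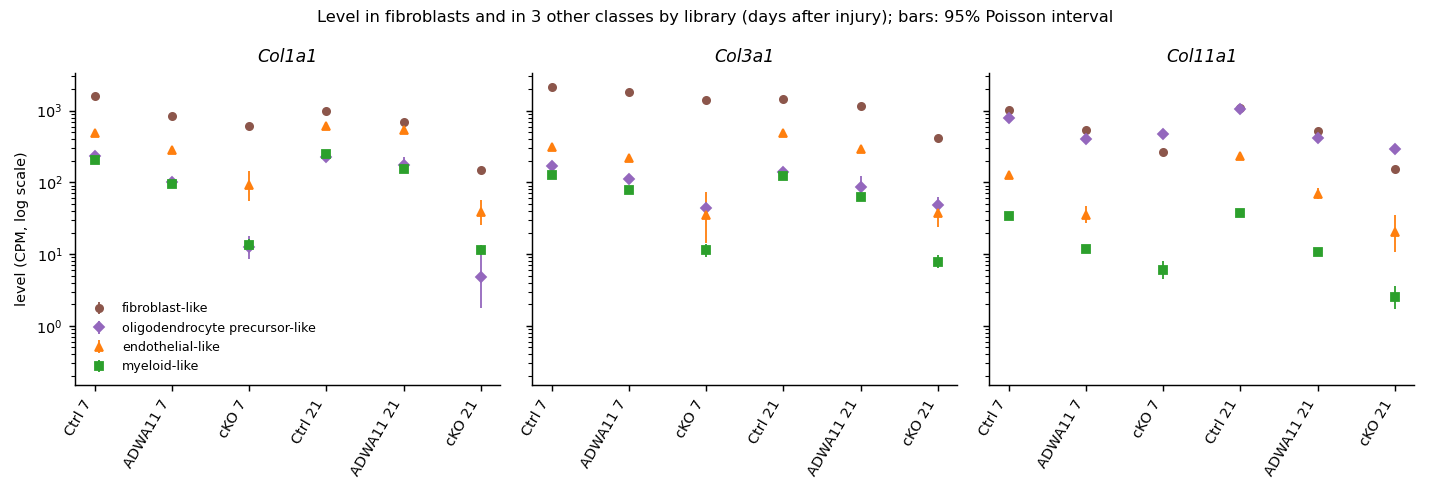
Levels of Col1a1, Col3a1 and Col11a1 in fibroblast-, oligodendrocyte precursor-, endothelial- and myeloid-like nuclei of each library, in CPM on a log axis, with exact 95% Poisson intervals as bars. Libraries with few nuclei of a class are included. Myeloid Col1a1 runs from 247 CPM in Ctrl to 11.5 CPM in Tgfbr2-cKO at 21 dpi, and Col11a1 in the precursors of the Tgfbr2-cKO libraries is 472 and 289 CPM.

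Osteoblast-like nuclei could be compared in 4 libraries, since Tgfbr2-cKO held 2 and 3 of them. Col1a1 was 3081 CPM in Ctrl and 4878 in ADWA11 at 7 dpi, and 6308 and 8140.1 at 21 dpi. Col11a2 was 57.6 and 637, then 546 and 619. The first of these 4 libraries, with 59 such nuclei, was the low one for both genes. Col24a1 was 448 and 1449.6, then 527 and 736, with ADWA11 above Ctrl at both times. Although few, these nuclei held 25.5% of all Col24a1 UMIs in Ctrl and 49.4% in ADWA11 at 7 dpi.

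Over all nuclei of a library, Col1a1 was 763, 383 and 20.4 CPM at 7 dpi and 824, 612 and 35.5 at 21 dpi. Col3a1 was 871, 652 and 35.8, then 925, 515 and 78.99. These totals mix the share of fibroblasts, the level within them and the UMIs of other classes, and the parts were not split. Osteoblast-like nuclei held 36.0% of Col1a1 UMIs in ADWA11 at 21 dpi. Neurons held 23.3% in Tgfbr2-cKO at 7 dpi, 571 UMIs over 6026 nuclei with a median of 15530.5 UMIs each. Those neurons were 56.9% of the library, and whether their Col1a1 UMIs were free RNA was not tested. The gap between Tgfbr2-cKO and Ctrl at 7 dpi was far wider over the library than within fibroblasts, in a library where fibroblasts were 3.62% of nuclei. How much tissue around the lesion each dissection took was not measured here.

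Ratios of 2 chains within a library do not depend on the number of fibroblasts. There were 0.532, 0.429 and 0.592 Col1a1 UMIs per Col1a2 UMI in fibroblasts on day 7 and 0.338, 0.331 and 0.325 at 21 dpi. The ratio was thus lower at 21 dpi and nearly the same in the 3 later libraries. The Col5a1 to Col5a2 ratio was 0.1697, 0.134 and 0.243, then 0.104, 0.124 and 0.267, highest in Tgfbr2-cKO at each time. In neurons of Tgfbr2-cKO the same ratio was 7.65 at 7 dpi and 6.36 at 21 dpi. The part of neuron RNA in the fibroblast ratio was not tested. Col1a1 to Col3a1 was 0.758, 0.467 and 0.434, then 0.677, 0.606 and 0.363, with Ctrl the highest at both times. UMI ratios are not protein ratios, since chains differ in length and capture. Per kb of gene, the fibroblast level pooled over libraries was 63.4 CPM for Col1a2, 54.8 for Col1a1, 39.4 for Col3a1, 8.02 for Col5a2, 3.91 for Col11a1 and 1.69 or less for the others.

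A list of 53 genes that process, fold, crosslink, decorate, bind or degrade collagen fibrils gave the setting. In Tgfbr2-cKO against Ctrl at 7 dpi, 8 of the 48 tested were called lower, beside 3.25% of all genes, and 3 higher, beside 5.98%, with a median log2 ratio of -0.26. At 21 dpi 15 were lower, beside 6.31%, and 3 higher, beside 7.26%, with a median of -0.71. Fibril-associated genes held the most calls, 6 of 11 lower at 21 dpi, among them Col14a1 (-2.76), a collagen on the fibril surface, and Aspn (-2.64), a small proteoglycan. Fmod, another fibril-binding proteoglycan, had the largest negative value at 7 dpi (-2.07), followed by Aspn (-1.61) and Itga11 (-1.54), a collagen receptor subunit. Adamts3, a procollagen N-proteinase, was at -2.59 at 21 dpi. Its relative Adamts14 was called higher at both times (1.40 and 1.07), as was Tnxb, a tenascin that binds fibrils (1.06 and 1.02). The third called higher was Itga10 at 7 dpi (1.02) and Itga1 at 21 dpi (1.05), both collagen receptor subunits. TMM and DESeq2 factors shift every Tgfbr2-cKO ratio at 7 dpi by -0.16 and -0.14, which puts Tnxb and Itga10 short of 2-fold there. TMM factors shift those at 21 dpi by -0.04, which puts Tnxb short of 2-fold at that time too. Of 15 folding and hydroxylation genes, none was called lower at 7 dpi and 3 at 21 dpi, Serpinh1, Plod2 and P4ha3.

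With ADWA11 the same list gave 4 lower of 49 at 7 dpi, beside 2.52% of all genes, and 0 higher, beside 5.08%. The lower genes were led by Fmod (-1.60), Loxl1 (-1.28), a crosslinking oxidase, and the proteoglycan gene Bgn (-1.22), with a median of -0.23. At 21 dpi 3 of 48 were lower, beside 3.22%, Plod2 (-1.28), which hydroxylates collagen lysines, Col16a1 (-1.23) and Adamts3 (-1.16). Adamts14 (1.07) and the collagenase Mmp13 (1.03) were higher, beside 2.92%, and the median was -0.06. In Ctrl from 7 to 21 dpi, Adamts14 (-1.44) and the fibronectin gene Fn1 (-1.004) were lower, beside 5.12%, and Adamts3 (1.96), Itga10 (1.47) and Prelp (1.46) higher, beside 11.5%, with a median of -0.14. The medians of all genes are those given above.

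The genes most like each member were ranked by Pearson r of log2(CPM + 1) over 87 pseudobulks, sums of a class or fibroblast sub-cluster in a library, among 16627 genes and with collagens left out. The pseudobulks share libraries, so r is descriptive. For Col1a1 the first were Serpinh1 (0.91), the collagen chaperone, Rcn3 and Lox, the crosslinking oxidase (both 0.90). Lox also led for Col1a2 (0.93) and Col3a1 (0.94), and Fkbp10, a collagen-folding isomerase, came second for Col5a2 (0.95) after Snhg18 (0.95). Col5a1 was closest to Ror2 (0.92), Dnm3os and Nfatc4, Col11a1 to Tenm3 (0.87), Cdh11 and Plod2, and Col27a1 to Lrig3 (0.84), Dnm3os and Arfgap1. Col5a3 was closest to Pde3a (0.85), followed by Lhfp and Sdc2 (both 0.77), Col24a1 to Eef1akmt3 (0.79), Efna5 and Mme, and Col11a2 to Sema3d (0.75), Aldh1l2 and Farp2. Among the members themselves r was 0.97 for Col1a1 with Col1a2, 0.95 for Col3a1 with Col5a2 and 0.93 for Col5a1 with Col5a2. Col11a2 reached at most 0.62 with any other, Col5a3 at most 0.66 and Col24a1 at most 0.68.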

How the data were processed

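Nuclei sorted from dissected PT lesions were sequenced with the 10x 3' v3.1 chemistry. The authors deposited whole-number UMI counts per gene and barcode for each of 6 libraries, made with Cell Ranger (7.1.0 per the labels, 7.2.0 per the file headers) on mm10; what was done to free RNA before deposit is not given in the sources used here. Groups were taken from the labels, 1 library each, so levels are described and no test was run.

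From the counts, in each library the lowest and highest 2.5% of barcodes by UMIs or by genes, and the highest 2.5% by mitochondrial share, were left out, leaving 61917 nuclei of 6 libraries. Nuclei were normalised with SCTransform in Seurat 5.3.0 (R 4.3.3), with the collagen genes taken out of the variable genes, and clustered on 30 components at a resolution of 0.5, or 0.2 for fibroblasts. A cluster was named where at least 3 markers of 1 class, and more than of any other, were found in at least 5% of its nuclei and 2-fold above the rest, unless its nuclei were shallow with none of those markers among its 10 leading genes, or markers of other classes outnumbered its own there. Doublets were scored with Scrublet in scanpy 1.11.5, and the highest 0.8% per 1000 barcodes were called. No fibroblast sub-cluster was over 50% doublets, so none was left out for that. Sex was assigned from Xist and Y-linked transcripts. Classes are rebuilt and may differ from those of the study. For each class in each library the UMIs were added up and given as CPM with exact Poisson intervals, and as log2 ratios with exact conditional binomial intervals, both at 95% and for counting error only. Genes with at least 50 UMIs over both libraries were tested against the 2-fold rule. Shares of nuclei were taken after thinning to 2000 UMIs, with exact binomial intervals. Scripts ran in Python 3.11.15 and were tested on simulated data. TMM factors (edgeR 4.0.16) and size factors (DESeq2 1.42.0), computed on the summed counts, served only as scaling alternatives, beside other clusterings, nuclei and folds. Gene positions are from GENCODE M21.

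All members were named. Of the pathway list, the 3 called genes of largest ratio in each direction per comparison were named, further ones after their values were seen, and for each member the 3 genes of highest Pearson r, on log2(CPM + 1) with at least 50 nuclei per pseudobulk and 500 UMIs per gene. The members and lists were chosen with earlier results of these data known.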

Additional observations from a re-analysis of the deposited data

Results flagged for a closer look

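For 2 members, effects under the same contrast went in opposite directions in 2 groups or at 2 times, by at least 1.5-fold in both. The difference itself was not tested, since each effect is a ratio of 2 libraries. The Col5a3 log2 ratio of ADWA11 to Ctrl in fibroblasts was 0.89 at 7 dpi and -0.63 at 21 dpi. The Col24a1 log2 ratio of 21 to 7 dpi was -1.03 in Ctrl and 1.18 in ADWA11. In Tgfbr2-cKO it was -0.48, in the direction of Ctrl and short of 1.5-fold. The Col24a1 value in Ctrl was below 2-fold under 5 of 14 alternatives.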

How the results depend on the processing

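No paired analysis was possible because each group is 1 library and the labels carry no replicate numbers. No library could be left out of a group, and 1 mouse of each was left out by taking female or male nuclei alone. Of the 20 member calls, all were kept with TMM or DESeq2 factors, other clusterings, called doublets or sub-cluster 1 left out, the 5 nuclei of most UMIs left out, and, in an alternative chosen after seeing the data, free RNA subtracted. TMM factors shift every Tgfbr2-cKO ratio at 7 dpi by -0.16 and DESeq2 factors by -0.14. Counting osteoblast-like nuclei as fibroblasts lost 5 calls, and leaving out sub-clusters drawn to at least 90% from 1 library, chosen after seeing the data, lost 3, gained Col27a1 from 7 to 21 dpi in Ctrl (-1.34) and reversed Col24a1 in Tgfbr2-cKO at 21 dpi to -0.86; Col5a3 in the same comparison, which was never called, became -0.50. The members called higher in that comparison (1) became 0 in both cases and 2 at 1.5-fold. For Tgfbr2-cKO at 7 dpi, 4 lower became 3 in female nuclei, where Col11a2 was -0.79, and 6 at 1.5-fold. They became 5, as Col27a1 passed 2-fold (-1.02 to -1.14), with TMM or DESeq2 factors, in male nuclei, with free RNA subtracted, or without sub-cluster 1 or the 5 nuclei of most UMIs. The subtraction took off 19.9% of Col27a1 UMIs in Tgfbr2-cKO at 7 dpi, against 1.38% of Col1a1 UMIs. Col27a1 had its own pattern in myeloid nuclei, and whether those UMIs were free RNA was not tested. For ADWA11 at 7 dpi, 1 lower became 2 with DESeq2 factors, 0 with osteoblast-like nuclei, 2 in male nuclei and 5 at 1.5-fold, and 0 higher became 1 in female nuclei and 1 at 1.5-fold. For ADWA11 at 21 dpi, 2 lower became 1 as a mean over nuclei, 1 thinned, 0 with osteoblast-like nuclei, 1 in female nuclei, 4 at 1.5-fold and 1 without single-library sub-clusters. From 7 to 21 dpi in Ctrl, 2 lower became 1 as a mean over nuclei, thinned, with osteoblast-like nuclei or in male nuclei, and 5 at 1.5-fold, and 0 higher became 1 at 1.5-fold. Apart from osteoblast-like nuclei and single-library sub-clusters, whose construction adds or removes nuclei, the cause was not tested. Depth limits Col11a2 most, with 37 UMIs in Tgfbr2-cKO fibroblasts at 7 dpi.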

Other observations

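Neurons, abundant only in the Tgfbr2-cKO libraries, used some minor chains unevenly. In Tgfbr2-cKO at 7 dpi Col5a1 was 71.9 CPM in a neuron cluster led by Hs3st4 and 43.3 CPM in one with Cux2 among its leading genes, against 2.95 CPM in a cluster led by Drd2. Col11a1 was 324 CPM in a cluster of Gad1-bearing neurons and 88.6 CPM in another with Gad1 and Vip. In that library fibroblasts held 14.6% of Col5a1 UMIs and 9.45% of Col11a1 UMIs. Neurons held 76.6% of Col24a1 UMIs and 61.8% of Col5a3 UMIs there.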
